A study of Mus musculus with 14 samples.

Results

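Wild-type embryonic blood was taken in this study from the litters of 2 crosses, and the comparison of these wild types is described here across all genes. The members are the 7 arrays titled as wild type among the 14 arrays of the series: 3 arrays of Cbfb+/+ blood and 4 arrays of WT blood. Cbfb+/+ embryos came from matings of Cbfb+/- with Cbfb+/- mice, whose other embryos were Cbfb-/- (3 arrays). WT embryos, also Cbfb+/+ by genotype, came from Cbfb-MYH11 chimeras mated to C57/Bl6 females, whose other embryos were Cbfb+/MYH11 (4 arrays). Chimeras are mice grown from a mix of normal and altered embryonic stem cells, and the labels give no strain for the Cbfb+/- parents. No wild-type group received a treatment. All blood was peripheral blood of embryos at E12.5, and for each RNA the blood of 8 to 10 embryos of the same genotype was pooled. The titles call the arrays technical replicates, so the p-values below speak for variation from array to array alone, possibly of technical origin. The cross is the labelled difference between the wild types, and anything that differs with it, such as strain background, litters or the handling of the arrays, cannot be told apart from it.

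At this stage of mouse development the circulation is filled mainly by primitive red cells, large nucleated cells that arise in the yolk sac and carry embryonic globins. They finish their maturation in the bloodstream: they stop dividing, condense their nuclei and load their cytoplasm with haemoglobin, which needs heme synthesis and iron uptake. Beside them circulate fewer cells of other kinds, among them macrophages, megakaryocytes and platelets, and the first cells from the fetal liver. Cbfb, the gene altered in both crosses, encodes the partner that helps Runx transcription factors bind DNA, and it is needed for definitive blood formation.

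The labelled tissue was checked against markers of primitive red cells. All 7 markers with a probe set lay at a log2 value of at least 6 on each of the 7 arrays. Hbb-bh1, Hbb-y and Hba-x, the embryonic globins, lay between 13.96 and 14.53, close to the highest value of the whole data set (14.55), where arrays lose sensitivity to differences. Markers of other tissues were present too. All 4 mesenchyme markers were at 6 or more on each of the 7 arrays, with a median of 7.03 to 8.46 per array, as were 2 of the 4 markers of liver or visceral endoderm and 3 of the 6 of macrophages. The 4 markers of endothelium, Pecam1, Cdh5, Kdr and Tek, were under 6 on each of the 7 arrays. Of the 4 neural markers, 3 were under 6 on each of them.

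The 4 WT arrays were not one group. Arrays 1 and 2 (the first WT pair) resembled each other, as did arrays 3 and 4 (the second WT pair), although no label describes such pairs. The SD of the log2 differences across the 7392 tested genes was 0.276 between WT arrays 1 and 2 and 0.122 between WT arrays 3 and 4, but had a median of 0.684 between arrays of different WT pairs. Among the Cbfb+/+ arrays it was 0.201 to 0.206. Cbfb+/+ arrays differed from the first WT pair with a median SD of 0.504 and from the second with 0.617. The wild type of the other cross was thus nearer to either WT pair than the WT pairs were to each other. The second WT pair lay closer to the Cbfb-/- arrays, at a median SD of 0.588, than to any wild-type array outside its own pair.

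**Figure D1:**
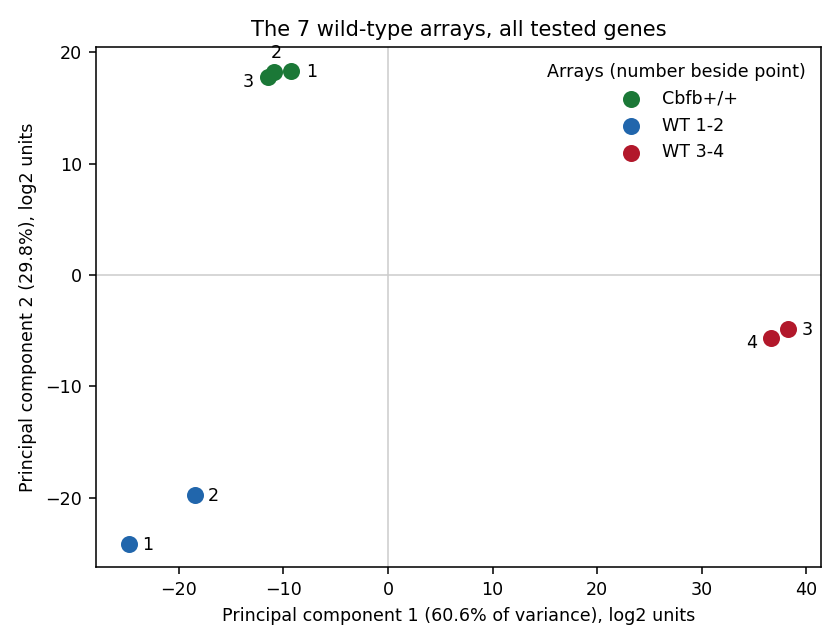
Principal components of the 7 wild-type arrays over all tested genes, in log2 units; each point is 1 array, coloured by Cbfb+/+, WT arrays 1 and 2, or WT arrays 3 and 4. The first component (60.6% of variance) sets WT arrays 3 and 4 (38.25 and 36.65) apart from the other 5 arrays, and the second (29.8%) sets the 3 Cbfb+/+ arrays (17.80 to 18.34) apart from WT arrays 1 and 2 (-24.13 and -19.79).

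Some array-wide measures moved with the WT pairs and others with the cross. Array medians were 4.40 to 4.42 in Cbfb+/+, 4.42 to 4.46 in the first WT pair and 4.37 to 4.38 in the second. The share of genes at 6 or more was 31.9 to 32.3% in Cbfb+/+, 31 to 31.4% in the first WT pair and 34 to 34.2% in the second. The bioB spike, a bacterial control transcript added before hybridization, had a mean of 9.34 to 9.42 on the Cbfb+/+ arrays and of 7.01 to 7.79 on the WT arrays. The 3′ minus 5′ difference of the actin control probe sets, a sign of RNA quality, was 0.465 to 0.502 on the Cbfb+/+ arrays, 0.519 to 0.668 on the first WT pair and 0.776 to 0.781 on the second. Their part in the results below was not tested.

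The comparison of Cbfb+/+ with WT asks how far normal blood of the 2 crosses can stand for one another. Values are log2 expression, and differences are Cbfb+/+ minus WT on that scale, with a gene called at a Benjamini-Hochberg adjusted p under 0.05 in limma and at least 1.5-fold. Of 7392 tested genes 830 were called, or 11.2%. They divided evenly, with 405 higher in Cbfb+/+ (5.48%) and 425 lower (5.75%). Of the tested genes 1195, and of the called genes 92, passed the filter only with the help of the mutant arrays. In 67 genes called higher no WT array reached 6, and in 149 called lower no Cbfb+/+ array did. The median difference of all tested genes was -0.002. In 802 of the called genes (10.8% of those tested) the 3 Cbfb+/+ arrays did not overlap the 4 WT arrays, against 2514 genes (34%) without overlap in all. Leaving out WT array 1 raised the genes called lower to 698.

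These counts rest on treating the 4 WT arrays as separate samples. A random block was then entered for 6 putative pools. These were the pairs of WT and of Cbfb+/MYH11 arrays, all Cbfb+/+ arrays together and all Cbfb-/- arrays together. Arrays of a block correlated at 0.761, and only 17 genes were called, 14 higher and 3 lower. With all Cbfb+/+ arrays in the same block, these calls too rest on few pools. When each putative pool was reduced to its mean, giving 6 in all, limma called 0 genes, and 413 had an unadjusted p under 0.05. The 17 genes are therefore described first.

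Of these 17, Eif2b3 and Sri had the smallest adjusted p. Sri, which encodes the calcium-binding protein sorcin, read 10.21, 10.17 and 10.17 on the Cbfb+/+ arrays and 8.65, 8.61, 8.80 and 8.80 on the WT arrays. Eif2b3, a subunit of the exchange factor that recharges the translation initiation factor eIF2, read 8.89, 8.80 and 8.90 against 7.33, 7.38, 7.44 and 7.45. In both genes every Cbfb+/+ array lay far above every WT array, and the WT pairs lay near each other. Each was 2.77-fold higher in Cbfb+/+, with 95% intervals of 2.45 to 3.13 for Sri and 2.49 to 3.08 for Eif2b3 (limma adjusted p = 6.79e-07 and 2.23e-07). Intervals and adjusted p-values, here and below, are from the fit with 4 separate WT arrays unless the random block is named. With the random block the limma adjusted p was 0.00501 for Sri and 0.00399 for Eif2b3.

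Nagpa, whose enzyme uncovers the mannose 6-phosphate tag of lysosomal proteins, had the largest rise by the rule for named genes. Its values were 8.66, 9.06 and 9.01 in Cbfb+/+ and 7.03, 6.94, 7.01 and 6.95 in WT. The groups were far apart on this probe set, at 3.80-fold (95% interval 3.20 to 4.52, limma adjusted p = 7.95e-07, or 0.0125 with the random block). The other Nagpa probe set past the filter, however, differed by -0.14, so the gene's direction is unsettled. Lgals3, the galactose-binding lectin galectin-3, was 3.69-fold higher, at 7.43 ± 0.13 (SD, n = 3) against 5.55 ± 0.26 (SD, n = 4). Cdk5rap1, an enzyme that modifies mitochondrial transfer RNA, was 3.29-fold higher. Both genes lay under 6 on all WT arrays, and wherever one side of a comparison lies under 6 the size of the fold is less certain. C1qtnf4, a secreted protein of the C1q and TNF family, and Gadd45gip1, a protein of the mitochondrial ribosome, were 3.10-fold and 2.78-fold higher.

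The other genes called higher with the random block were Cpox, Steap3 and Icam4, described with the red cell genes below, and Hdgf, Ssr4, Nrtn and Atf5. Hdgf, a nuclear growth factor, lay at 10.99 ± 0.03 (SD, n = 3) against 9.75 ± 0.18 (SD, n = 4). Ssr4, a subunit of the complex that helps proteins enter the endoplasmic reticulum, differed by 1.07, Nrtn, the growth factor neurturin, by 1.04, and the stress-related transcription factor Atf5 by 1.12. In each of these 4 genes no Cbfb+/+ array overlapped a WT array. Another Hdgf probe set differed by 0.33, and the other Ssr4 probe sets by 0.21 and -0.23, so these differences rest on 1 probe set each.

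The 3 genes called lower with the block were Zfp874a, Clk1 and D2hgdh. Zfp874a, a zinc finger gene, had the largest fall of all called genes. It read 5.11, 4.43 and 4.23 in Cbfb+/+ and 7.99, 8.06, 7.56 and 7.73 in WT. No array of one group came near the other (limma adjusted p = 7.95e-07, or 0.0125 with the random block). The Cbfb+/+ values lay near the array medians, so the size of the fold is uncertain. Clk1, a kinase of splicing factors, read 8.09, 7.97 and 7.99 against 9.13, 9.43, 9.97 and 9.97, and was 3.05-fold lower. D2hgdh, which degrades D-2-hydroxyglutarate in mitochondria, differed by -1.34, at 8.36, 8.44 and 8.30 against 9.56, 9.69, 9.73 and 9.84.

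**Figure D2:**
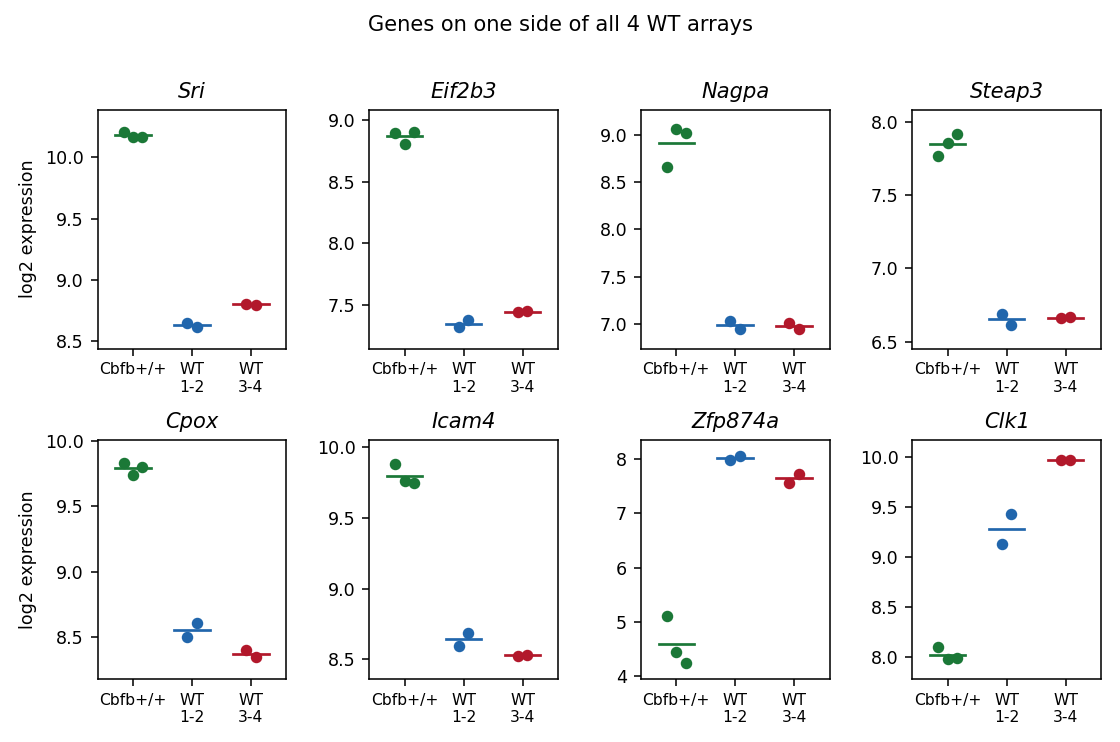
Log2 expression of 8 genes on the 3 Cbfb+/+ arrays, WT arrays 1 and 2, and WT arrays 3 and 4; points are arrays and lines are means. In each panel all Cbfb+/+ arrays lie on one side of all 4 WT arrays, from Steap3, where the WT arrays span 6.62 to 6.69, to Clk1, where they span 9.13 to 9.97.

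Several of these differences were shared by the mutant arrays of the same cross. Zfp874a had a mean of 4.15 in Cbfb-/- and of 7.52 in Cbfb+/MYH11 blood, each close to the wild type of its own cross. Sri was at 9.93 in Cbfb-/- and 8.70 in Cbfb+/MYH11. Over all tested genes, 762 (10.3%) had all 6 arrays of the Cbfb+/- cross outside the range of the 8 arrays of the other. Of the genes called between the wild types, 146 of those higher and 192 of those lower were among them. In such genes the difference followed the cross in mutant and wild type alike.

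Further large differences were called with 4 separate WT arrays but not with the random block. Among the higher genes were Gkn2, a gastrokine (2.91-fold), Lama1, a chain of laminin (2.67-fold), Maz, a zinc finger factor that binds GC-rich promoters (2.65-fold), B4galt4, a galactosyltransferase (2.63-fold), and Cdca3, a trigger of entry into mitosis (2.71-fold). Lhx2, a homeobox factor, was called at 5.41 to 5.80 against 3.72 to 4.17, but all 7 arrays were under 6 and it passed the filter only through the Cbfb-/- arrays (mean 9.43). The call was lost without Cbfb+/+ array 1. Malat1, a nuclear long noncoding RNA, was 3.79-fold lower, at 8.51, 8.52 and 8.37 against 10.63, 10.67, 10.04 and 10.21. Arid4b and Lcor, which act in corepressor complexes, were 3.10-fold and 2.71-fold lower, and E2f5, a repressive cell cycle factor, 2.61-fold lower on its brightest probe set, with its other probe sets at -0.29 and -0.31. Trim56, a ubiquitin ligase of antiviral defence, was 2.81-fold lower and Atp7a, a copper pump, 2.62-fold lower.

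Other large falls were made by the second WT pair. Actc1, cardiac actin, read 5.49, 5.23 and 5.41 in Cbfb+/+, 6.54 and 6.75 in the first WT pair, and 9.83 and 9.79 in the second. Shh, a secreted signal that patterns embryonic tissues, read 5.27, 5.60 and 5.45, then 6.28 and 6.37, then 8.28 and 8.36. Bex1, a small adaptor protein, Mylk, the kinase of smooth muscle myosin light chain, and Meis2, a homeobox factor, had the same order of levels. Mylk lost its call without Cbfb+/+ array 1. Meis2 (adjusted p = 0.0462) lost it without any 1 of the Cbfb+/+ arrays or of WT arrays 3 and 4.

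Red cell genes were next examined by role. The embryonic globins did not pass the fold: Hbb-bh1 differed by 0.30 (limma adjusted p = 0.0043), Hbb-y by 0.08 and Hba-x by 0.03. For Hba-x the 95% interval was -0.10 to 0.17, at a level near the top of the scale. The adult beta globin Hbb-b2 lay at 11.26, 11.58 and 11.61 in Cbfb+/+ and at 11.70, 11.95, 12.07 and 12.27 in WT, a difference of -0.52 that was not called.

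Of 23 tested genes of heme synthesis and iron, 4 were called higher in Cbfb+/+ and 2 lower, or 26.1% against 11.2% of all tested genes, and their median difference was 0.18, or 0.06 with quantile normalization. The median level of the 23 genes, in contrast, was lower in Cbfb+/+ (10.06 to 10.19) than on every WT array (10.26 to 10.62), so the list as a whole has no settled direction. Cpox, which makes protoporphyrinogen from coproporphyrinogen, read 9.84, 9.74 and 9.80 against 8.50, 8.60, 8.39 and 8.35 (2.52-fold higher). The other Cpox probe sets differed by 0.33 and -0.26, and with probe sets averaged the difference was 0.47 and not called. Steap3, the reductase that frees iron for transport out of the transferrin endosome, read 7.77, 7.85 and 7.92 against 6.69, 6.62, 6.66 and 6.67 (2.28-fold higher). Tmem14c, which carries the heme precursor into the mitochondrial matrix, was 2.36-fold higher, and Slc25a38, a mitochondrial glycine carrier, differed by 0.62. These 4 genes lie at different steps of the pathway, and in the first 3 no Cbfb+/+ array overlapped a WT array. Lower were Hmox1, which breaks down heme (-0.96), and Abcb10, a mitochondrial transporter (-0.92). Alas2, the first and rate-limiting enzyme of red cell heme synthesis, differed by 0.03 with a 95% interval of -0.16 to 0.21, and Tfrc, the transferrin receptor, by -0.07 (-0.28 to 0.14).

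Among 24 genes of the red cell membrane 3 were called higher and 1 lower, or 16.7% against 11.2% of all tested genes, and 1 was called higher with the random block. Icam4, an adhesion molecule and blood group protein, read 9.88, 9.77 and 9.75 against 8.60, 8.69, 8.53 and 8.53 (2.32-fold higher, limma adjusted p = 9.09e-05, or 0.0391 with the random block). Slc43a1, an amino acid transporter, was 2.03-fold higher, and Rhd, the Rhesus protein, 1.68-fold higher. Mpp1, which ties the membrane to its skeleton, was 1.77-fold lower. The list had a median difference of -0.086, which turned to 0.02 with no filter and to 0.09 with probe sets averaged. Slc4a1, the band 3 anion exchanger, differed by -0.12 with its Cbfb+/+ arrays (13.08 to 13.12) next to the second WT pair (13.10 and 13.11).

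Icam4 and Rhd are shown with the 250 bases before their start sites (RefSeq, GRCm38.p6, plus strand, chr9:21029182-21029431 and chr4:134864286-134864535), because both were called higher and both windows hold a GATA-type motif, the core bound by red cell factors such as Gata1. Capitals mark AGATAA or its reverse complement TTATCT, and the letters run 5′ to 3′ on the gene's strand.

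Icam4: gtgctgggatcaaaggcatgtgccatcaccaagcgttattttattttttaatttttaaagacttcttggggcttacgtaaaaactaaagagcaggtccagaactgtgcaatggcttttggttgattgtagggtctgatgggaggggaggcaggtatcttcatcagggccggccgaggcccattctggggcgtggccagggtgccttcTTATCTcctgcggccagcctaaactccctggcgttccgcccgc

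Rhd: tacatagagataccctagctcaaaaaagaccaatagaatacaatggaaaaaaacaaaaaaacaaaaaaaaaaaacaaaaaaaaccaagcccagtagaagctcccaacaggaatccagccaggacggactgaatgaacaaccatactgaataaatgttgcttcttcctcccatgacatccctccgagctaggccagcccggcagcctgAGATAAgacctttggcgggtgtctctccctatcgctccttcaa

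The motif was found in 5 of the 18 red cell membrane genes with a promoter in the table (27.8%), in 2 of 18 heme and iron genes (11.1%), in 3 of 20 red cell transcription factors (15%), and in 425 of 6053 tested genes with a promoter (7.02%). A match in these windows is a description of the letters and not a shown binding site.

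Red cell transcription factors held the largest share of called genes among these groups: 7 of 23 were higher and 1 was lower, or 34.8% against 11.2% of all tested genes. Klf1, the factor that drives globin and membrane genes, read 11.31, 11.22 and 11.26 in Cbfb+/+ and 10.66, 10.71, 10.50 and 10.55 in WT (1.58-fold higher, limma adjusted p = 0.00138). Hemgn, a nuclear protein of red cell precursors, was 1.80-fold higher, E2f4, a factor of terminal red cell division, 1.85-fold, and Zfpm1, the cofactor FOG1 of Gata1, 1.52-fold. Zfpm1 lost its call without WT array 4 and without Cbfb+/+ array 3. Mybl2 (0.83) and Ikzf1 (0.59) were also called. Nfia, a factor that favours the red cell fate, was 2.29-fold higher on its brightest probe set, but another Nfia probe set that passed the filter differed by -0.67, so its direction is unsettled. Foxo3, a factor of red cell maturation and stress defence, differed by -0.67 and was called lower. Gata1 differed by 0.46 (95% interval 0.24 to 0.68) and was under the fold. With quantile normalization 5 were called higher, and with the random block 0. Klf1 (0.55) and Zfpm1 (0.58) were those that lost their calls with quantile normalization.

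Late red cell maturation genes were called at a share near that of all tested genes, 8% against 11.2%. Of 25, 1 was called higher (Fbxo7, a ubiquitin ligase subunit, 1.55-fold) and 1 lower (Mxi1, an antagonist of Myc, 1.51-fold, with its other probe set at -0.04), and the list median was -0.208. Fbxo7 lost its call without WT array 3 and Mxi1 without WT array 1 or 2. Of the 16 antioxidant enzymes, Glrx, a glutaredoxin, was 2.33-fold higher and Cat, catalase, 1.64-fold lower, and Gpx1 and Prdx2 differed by -0.03 and -0.14. Each of these red cell lists with called genes therefore held members higher in Cbfb+/+ and members lower.

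Median levels of the macrophage and mesenchyme lists also moved between these arrays. The 34 macrophage genes with a probe set had median levels of 6.38 to 6.55 in Cbfb+/+, 6.61 to 6.94 in the first WT pair and 5.63 to 5.64 in the second. The 31 mesenchyme genes had 6.04 to 6.21, 5.79 to 5.84 and 7.01 to 7.03. In both lists Cbfb+/+ lay between the WT pairs. The red cell genes called above lay outside both pairs, but so did every called gene of any kind. The part of other cells in the red cell calls was not tested.

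The genes that the WT pairs place on different sides of Cbfb+/+ were then marked. A gene was marked where the mean of the Cbfb+/+ arrays lay between the means of the WT pairs. This held for 2900 of the 7392 tested genes (39.2%). In 1133 genes (15.3%) all 3 Cbfb+/+ arrays lay between the pairs with no overlap, and in 198 (2.68%) Cbfb+/+ was at least 1.5-fold from both. Most marked genes had 1 order: in 2006 Cbfb+/+ was above the first WT pair and below the second, and in 894 the reverse. Among the 198 genes the numbers were 177 and 21. With the filter on the 7 wild-type arrays alone, 2325 of 6197 tested genes were marked, 139 of them by at least 1.5-fold. A mark is a description and carries no test, and 0 of the 830 called genes were marked.

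Against each WT pair alone the picture changed direction. With array pairs as groups in the fit, 1489 genes (20.1%) were called against the first pair, 1052 higher in Cbfb+/+ (14.2%) and 437 lower (5.91%). Against the second pair 1968 genes (26.6%) were called, 514 higher (6.95%) and 1454 lower (19.7%). There were 425 genes (5.75%) called against both pairs on one side, 217 higher and 208 lower in Cbfb+/+, and 197 (2.67%) called against both on different sides. The same wild type therefore looked mostly higher beside one WT pair and mostly lower beside the other. Both comparisons share the Cbfb+/+ arrays.

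**Figure D3:**
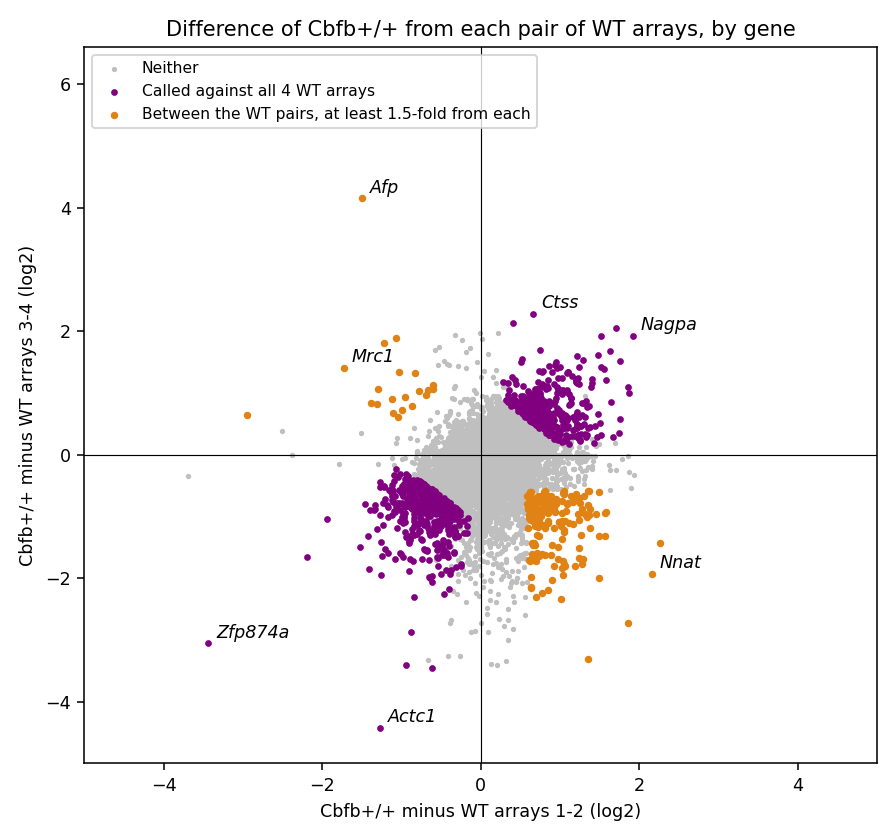
Each point is 1 of the 7392 tested genes, placed by the difference of Cbfb+/+ from WT arrays 1 and 2 (horizontal, log2) and from WT arrays 3 and 4 (vertical, log2). The 830 genes called against all 4 WT arrays lie in the quadrants where both differences have 1 sign, and the 198 genes marked by at least 1.5-fold lie in the other quadrants, 177 of them at lower right and 21 at upper left.

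Position between the pairs was not midway. Of 900 genes at least 2-fold higher in the second WT pair than in the first, 478 had a Cbfb+/+ level between the pairs but nearer the first, 254 between but nearer the second, 140 beyond the first and 28 beyond the second. The median Cbfb+/+ level lay 32.5% of the way from the first pair to the second. For the 78 genes at least 2-fold lower in the second pair it lay 35.9% of the way.

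Many macrophage genes were lower in the second WT pair than in Cbfb+/+ and in the first pair. Of 21 tested, 13 were marked (61.9%, against 39.2% of all genes). Mrc1, the mannose receptor of tissue macrophages, read 7.53, 7.70 and 7.54 in Cbfb+/+, 9.21 and 9.43 in the first pair, and 6.19 and 6.17 in the second. Csf1r, the receptor that macrophages need to survive, read 8.97, 8.95 and 8.96, then 9.74 and 9.85, then 7.74 and 7.53. The 3 sets of arrays did not overlap in either gene, although the Cbfb+/+ mean differed from that of all WT arrays by only -0.16 and 0.25. Ctsc, a lysosomal protease, kept this order, as did Ms4a6b, a membrane protein of white cells outside the list. Over the list the median difference was -0.18 from the first pair and 1.33 from the second. Against the second pair 16 of the 21 genes were called higher in Cbfb+/+ and 1 lower, where 6.95% of all tested genes were higher. Against the first pair 6 were called lower and 1 higher, where 5.91% of all were lower.

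Some macrophage genes left this order and were called. Ctss, a lysosomal protease of antigen presentation, read 8.57, 8.81 and 8.54 in Cbfb+/+, above both WT pairs (7.95 and 8.01, 6.32 and 6.41), and was 2.77-fold higher. Ctsb, another lysosomal protease, was 1.52-fold higher, with other probe sets at 0.38 and 0.02, and lost its call without WT array 3, WT array 4 or Cbfb+/+ array 1. Lgmn, which activates such proteases, was 2.19-fold lower. In bulk RNA of pooled blood, fewer cells of a type and less RNA per cell cannot be told apart.

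Of 22 megakaryocyte and platelet genes 17 were marked (77.3%, against 39.2% of all tested genes). F13a1, a clotting factor subunit of platelets and macrophages, read 8.20, 8.18 and 8.23 in Cbfb+/+, 9.18 and 9.37 in the first pair, and 6.32 and 6.30 in the second. Thbs1, the adhesive protein thrombospondin, and Gp9, part of the platelet receptor for von Willebrand factor, lay between the pairs likewise. Pf4 and Ppbp, platelet chemokines, differed from the first pair by -0.19 and -0.33 and from the second by 1.41 and 1.93. The list median was -0.32 against the first pair and 1.01 against the second. Against the second pair 18 of the 22 were called higher and 2 lower, where 6.95% of all tested genes were higher and 19.7% lower. Against the first pair 5 were called lower and 0 higher by limma, where 5.91% of all were lower and 14.2% higher. Nrgn, a calmodulin-binding protein, was the 1 member called against all 4 WT arrays (2.40-fold higher), a call that was lost without WT array 3, WT array 4 or any 1 of the Cbfb+/+ arrays.

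Genes of liver and visceral endoderm, the tissues that make serum proteins for the embryo, were mostly marked. Afp, alpha-fetoprotein, read 10.42 on each of the 3 Cbfb+/+ arrays, 11.97 and 11.86 on the first WT pair, and 6.33 and 6.20 on the second. Apoa1 and Apoe, lipoprotein components, and Ttr, the thyroid hormone carrier transthyretin, kept that order. Of 14 tested genes 12 were marked (85.7%, against 39.2% of all tested genes), 6 of them by at least 1.5-fold. By limma 0 were called against all 4 WT arrays. The difference of Afp, 1.33, had a 95% interval of -1.53 to 4.18. Its 3 Cbfb+/+ arrays agreed to the second decimal, while the WT pairs lay far to either side.

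Some genes were high in the first WT pair alone. Prap1, a secreted protein of gut and uterus, read 9.54 and 9.61 there against 5.82 to 5.92 in Cbfb+/+ and 6.31 and 6.12 in the second pair. Cubn, the endocytic receptor cubilin of yolk sac and kidney, read 6.23 and 6.88 against 3.83 to 4.27 and 3.66 and 3.68. Maob, a monoamine oxidase, read 7.01 and 7.26 against 3.89 to 4.74 and 3.53 and 3.58. These 3 genes were chosen after their values were seen.

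**Figure D4:**
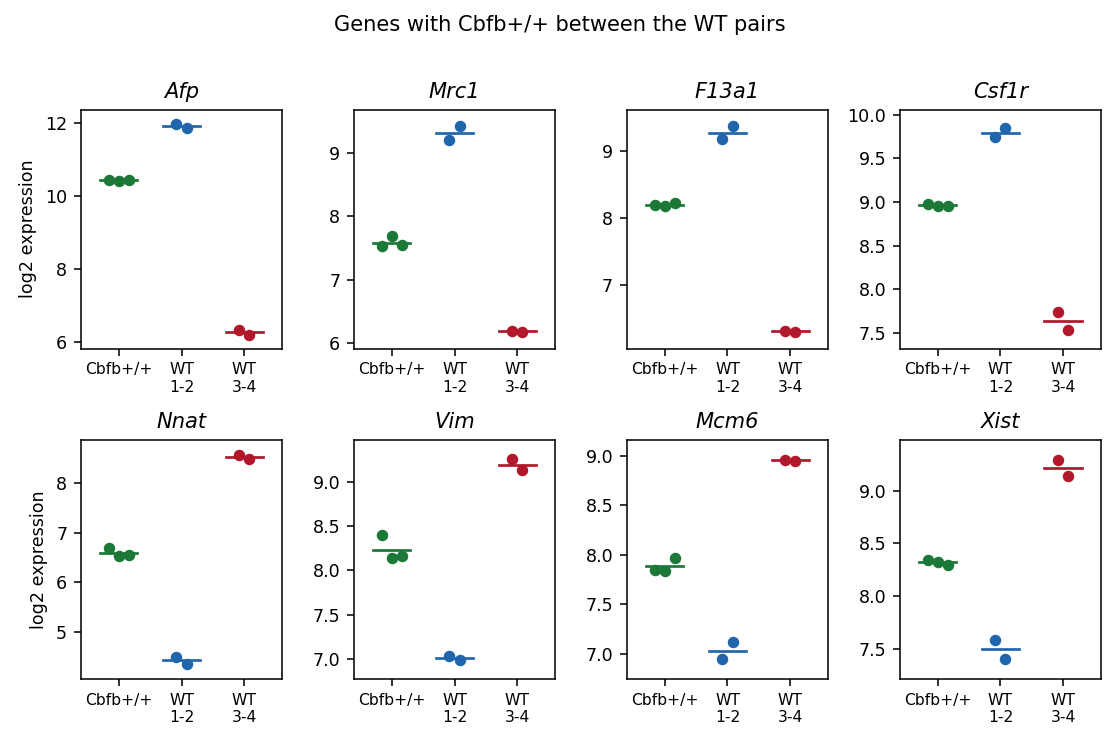
Log2 expression of 8 marked genes on the 3 Cbfb+/+ arrays, WT arrays 1 and 2, and WT arrays 3 and 4; points are arrays and lines are means. Afp, Mrc1, F13a1 and Csf1r fall from the first WT pair through Cbfb+/+ to the second, and Nnat, Vim, Mcm6 and Xist rise in that order, with no overlap between the 3 sets.

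Mesenchyme genes had the opposite order, low in the first WT pair and high in the second. Of 24 tested, 15 were marked (62.5%, against 39.2% of all tested genes). Vim, the filament vimentin, read 8.40, 8.14 and 8.16 in Cbfb+/+, 7.03 and 6.99 in the first pair, and 9.26 and 9.13 in the second. Col5a2, a fibrillar collagen chain, and Lum, the collagen-binding lumican, lay between the pairs in the same way, as did Cdh11, a cadherin of connective tissue outside the list. Col3a1 differed by 0.56 from the first pair and by -2.59 from the second. Called against all 4 WT arrays were Col6a2 (1.77-fold lower) and Col6a3 (1.81-fold lower), chains of collagen VI, and Twist1, a mesenchymal transcription factor (1.54-fold higher). Twist1 was no longer called without WT array 1, WT array 2 or any 1 of the Cbfb+/+ arrays.

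Several muscle and neural genes were highest in the second WT pair. Of 10 muscle genes 3 were called lower in Cbfb+/+ and 1 higher, where 5.75% of all tested genes were lower and 5.48% higher. In the fit of the 7 wild-type arrays 1 muscle gene was called lower and 1 higher, and with the random block 0. Acta1, skeletal actin, read 6.69, 6.66 and 6.74 against 7.55, 7.71, 7.98 and 8.04 (2.18-fold lower). Tnni1, slow skeletal troponin I, was 2.10-fold lower, a call lost without WT array 3, WT array 4 or any 1 of the Cbfb+/+ arrays. Myh11, smooth muscle myosin, was the gene called higher, at 6.69, 6.67 and 6.76 against 6.14, 6.02, 5.93 and 6.03 (1.59-fold). Of 24 neural genes 11 were marked (45.8%, near the 39.2% of all tested genes). Against the second pair 14 were called lower and 1 higher, where 19.7% of all tested genes were lower and 6.95% higher. Against the first pair 5 were called higher and 2 lower, where 14.2% of all were higher and 5.91% lower. Only 5 of the 24 pass the filter on the wild-type arrays alone. The rest reached 6 on fewer than 3 of the 7 wild-type arrays and passed with the help of the mutant arrays. Nnat, neuronatin, read 6.70, 6.52 and 6.55 in Cbfb+/+, 4.49 and 4.36 in the first pair, and 8.55 and 8.49 in the second. Sbk1, a kinase of the brain, and Stmn1, a microtubule regulator of dividing and neural cells, were marked in the same order. Of the 4 defining neural markers, Sox2, Fabp7 and Tubb3 stayed under 6 on all 7 wild-type arrays, whereas Nes lay at 6.83 to 7.48.

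Genes of DNA replication lay mostly between the WT pairs. Of 37 tested, 28 were marked (75.7%, against 39.2% of all tested genes). All 8 marked by at least 1.5-fold had Cbfb+/+ above the first WT pair and below the second. Over all tested genes 177 of the 198 genes so marked had that order. On the wild-type arrays alone 27 of the 37 pass the filter. Mcm6, a subunit of the replicative helicase, read 7.85, 7.83 and 7.97 in Cbfb+/+, 6.94 and 7.12 in the first pair, and 8.96 and 8.95 in the second. Mcm7, another subunit, read 7.93, 7.94 and 7.96, then 6.68 and 7.17, then 9.04 and 8.99. Cdc6, the loader of that helicase, followed the same order, as did Dut, an enzyme outside the list that keeps uracil out of DNA. The list median was 0.49 against the first pair and -0.70 against the second. Called against all 4 WT arrays were Gins2 (1.66-fold lower) and Mcm10 (1.64-fold lower), both replication fork factors.

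Among 33 mitosis genes 8 were called higher and 0 lower, or 24.2% against 11.2% of all tested genes. Marked were 17 (51.5%, against 39.2% of all tested genes). Ccnb2, a mitotic cyclin, read 8.93, 8.89 and 8.96 in Cbfb+/+, 7.28 and 7.69 in the first pair, and 8.45 and 8.47 in the second (1.94-fold higher than all WT arrays, limma adjusted p = 0.00888). Aurka, a kinase of the spindle poles, was 2.10-fold higher, Ccna2, the cyclin of S phase and mitotic entry, 1.95-fold, and Birc5, the chromosome passenger survivin, 1.86-fold. In these 4 genes the Cbfb+/+ arrays lay above both pairs rather than between them. Cdk1, the mitotic kinase itself, differed by 0.81, with 1.43 from the first pair and 0.18 from the second. The list median was 1.03 against the first pair and -0.03 against the second. The number called higher was 4 without WT array 1, WT array 2 or any 1 of the Cbfb+/+ arrays, 15 without WT array 3, 14 without WT array 4, 2 in the fit of the 7 wild-type arrays, and 0 with the random block. Bub1, Top2a and Cenpf were marked.

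The windows of Ccnb2 and Cdk1 are shown because these mitotic genes moved together against the first WT pair and carry 2 motifs known from mitotic promoters, the CCAAT box (CCAAT or ATTGG) and the cell cycle homology region (TTTGAA or TTCAAA). Both lie on the minus strand (RefSeq, GRCm38.p6, chr9:70421555-70421804 and chr10:69352913-69353162), and capitals mark both motifs. The window of Mcm6, also on the minus strand (chr1:128359706-128359955), is shown for the replication genes, with capitals for an E2F-type motif, TTTNNCGC or its reverse complement GCGNNAAA.

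Ccnb2: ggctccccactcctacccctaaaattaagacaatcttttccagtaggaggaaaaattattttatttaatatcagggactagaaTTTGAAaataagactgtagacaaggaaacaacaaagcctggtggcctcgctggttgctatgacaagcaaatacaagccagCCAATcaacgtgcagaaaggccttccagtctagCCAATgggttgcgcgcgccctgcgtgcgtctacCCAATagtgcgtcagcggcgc

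Cdk1: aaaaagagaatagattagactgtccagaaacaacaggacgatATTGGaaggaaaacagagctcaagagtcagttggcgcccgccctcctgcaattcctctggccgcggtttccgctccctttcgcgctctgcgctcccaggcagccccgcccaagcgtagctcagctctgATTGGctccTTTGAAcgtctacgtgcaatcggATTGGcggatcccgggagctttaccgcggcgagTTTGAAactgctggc

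Mcm6: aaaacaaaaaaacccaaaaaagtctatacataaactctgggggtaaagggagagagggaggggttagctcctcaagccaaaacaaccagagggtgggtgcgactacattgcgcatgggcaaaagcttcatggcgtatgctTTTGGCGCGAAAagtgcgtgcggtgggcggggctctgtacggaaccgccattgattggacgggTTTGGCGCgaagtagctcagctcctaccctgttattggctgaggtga

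The Ccnb2 and Cdk1 windows each held 3 CCAAT boxes. The Ccnb2 window held 1 copy of the TTTGAA motif and the Cdk1 window 2. In Mcm6 there were 3 E2F-type matches, of which a pair overlaps. The CCAAT box was found in 22 of 29 mitosis genes with a promoter (75.9%, against 40.5% of tested genes with one) and TTTGAA in 10 of 29 (34.5%, against 12.8%). The E2F-type motif was found in 8 of 30 replication genes (26.7%, against 9% of tested genes). As above, a match describes letters in a window and is no shown site.

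Genes of ribosome biogenesis followed replication, with 19 of 27 marked (70.4%, against 39.2% of all tested genes). Fbl, the nucleolar methylase fibrillarin, read 8.01, 8.06 and 7.78 in Cbfb+/+, 7.04 and 7.41 in the first pair, and 8.78 and 8.96 in the second. Nop58 and Dkc1, of the RNA-guided modifying complexes, were marked in the same order, and Utp20, a ribosome assembly factor, was called lower at 1.61-fold, a call lost without WT array 3, WT array 4 or Cbfb+/+ array 2. Cytosolic ribosomal proteins varied less: their medians were 0.32 against the first pair and 0.03 against the second. Of 29, 1 was called (3.45%, against 11.2% of all tested genes), Rps6, 1.81-fold higher. In the respiratory chain 2 of 29 genes were called (6.9%), both higher: Uqcrc1 of complex III (1.62-fold) and Ndufa9 of complex I (1.62-fold, lost without WT array 1).

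**Figure D5:**
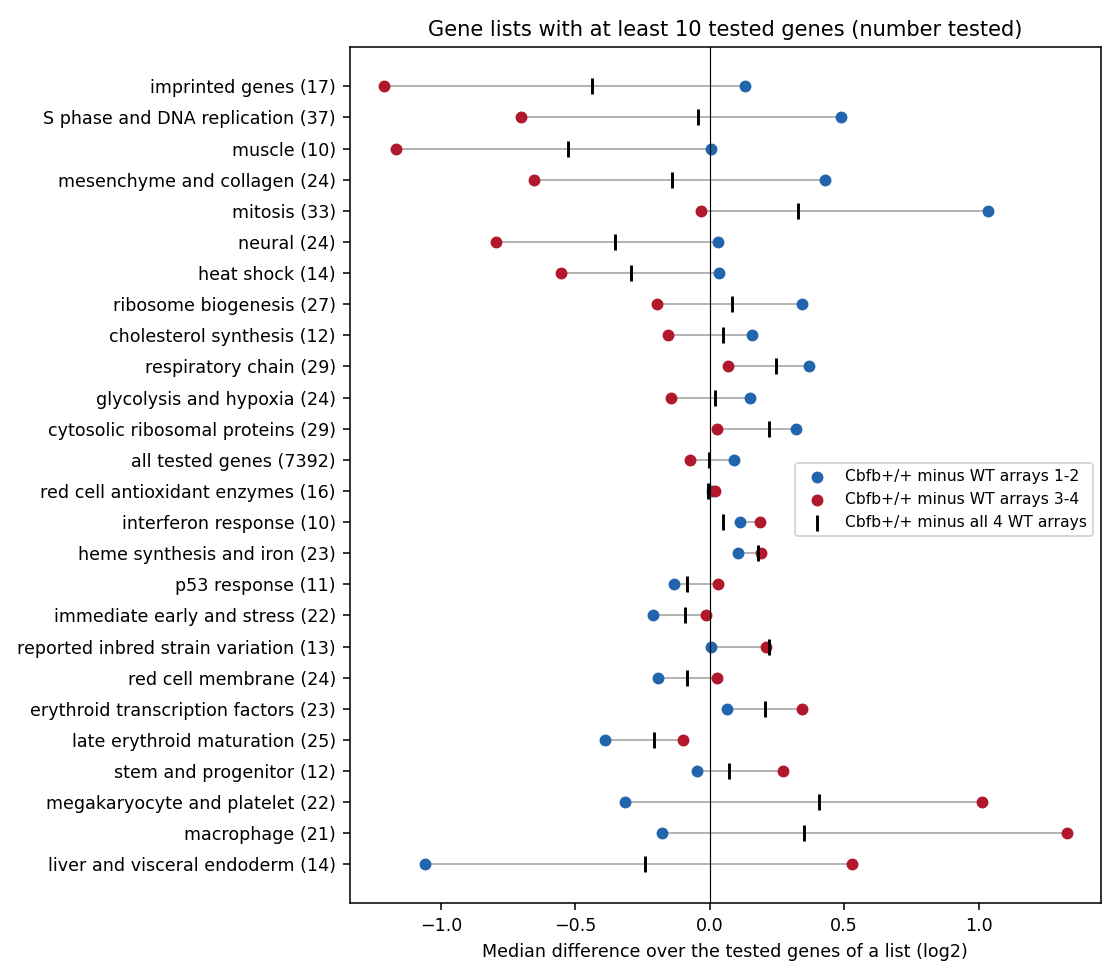
Median log2 difference of Cbfb+/+ from WT arrays 1 and 2 (blue), from WT arrays 3 and 4 (red) and from all 4 WT arrays (black tick), for each gene list with at least 10 tested genes and for all 7392 tested genes. The points lie far apart and on either side of 0 for S phase (0.49 and -0.70), macrophage (-0.18 and 1.33), platelet (-0.32 and 1.01) and liver genes (-1.06 and 0.53), and close together for heme synthesis and iron (0.11 and 0.19).

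Imprinted genes, expressed from 1 parental copy and many of them growth regulators, were lower in Cbfb+/+ where they were called. Igf2r, the maternally expressed receptor that clears Igf2, read 5.66, 5.62 and 6.03 against 6.91, 6.95, 7.43 and 7.30 (2.60-fold lower). Peg3, a paternally expressed zinc finger gene, was 2.00-fold lower and Impact, a regulator of translation, 2.84-fold lower. These 3 of 17 tested genes (17.6%, against 11.2% of all tested genes) lay below both WT pairs, and every called gene of any kind lay outside both. Another 8 were marked (47.1%, near the 39.2% of all tested genes), among them Cdkn1c, a cell cycle inhibitor, and Dlk1, a membrane ligand. Mest and Plagl1 differed by 0.13 and -0.41 from the first pair and by -3.39 and -3.27 from the second. Without WT array 1 or 2 the number called lower was 6.

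Of 9 core binding factor genes and their partners 1 was called (11.1%, against 11.2% of all tested genes). Cbfb itself read 6.52, 6.56 and 6.27 in Cbfb+/+, 6.62 and 6.57 in the first WT pair, and 8.31 and 8.14 in the second. All 7 arrays come from embryos with normal Cbfb, yet the second pair stood above the other 5 arrays, and the difference of -0.96 was not called (limma adjusted p = 0.164). Runx1, the partner needed for definitive blood, differed by -0.31 (95% interval -0.68 to 0.06). Runx3 differed by 0.43. Runx1t1, a corepressor, was 1.56-fold lower, at 7.94, 7.89 and 7.84 against 8.38, 8.68, 8.43 and 8.63. Its 4 other probe sets past the filter differed by -0.20 to 0.10, and with probe sets averaged 0 of 4 genes of this list were called by limma.

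Of 12 stem and progenitor genes 2 were called (16.7%), and of 5 cytokine receptor genes 1 (20%), against 11.2% of all tested genes. With the filter on the 7 wild-type arrays, 8 stem and progenitor genes were tested and 1 was called. Csf2rb2, the mouse receptor chain specific for interleukin 3, read 6.17, 6.07 and 6.22 in Cbfb+/+ and 5.17, 5.62, 5.69 and 5.70 in WT, a 1.52-fold call that was lost without WT array 1 or Cbfb+/+ array 3. Csf2rb, the common signalling chain of several myeloid cytokine receptors, differed by 0.21 (95% interval -0.01 to 0.42) and was not called, but its other probe set past the filter differed by 1.00. With probe sets averaged 2 cytokine receptor genes were called higher. Gata2, a factor of stem and mast cells, differed by 0.06, and was marked. Mpo, the granule enzyme of young granulocytes, was 1.91-fold higher, at 7.92, 7.88 and 7.58 against 6.92, 6.77, 6.90 and 6.84. Mecom, a stem cell factor, was 1.79-fold higher and Tgm2, a transglutaminase, 1.64-fold higher, the latter lost without WT array 1.

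Stress and interferon genes showed single calls. Jun, a factor of the immediate early response, was 2.50-fold lower, at 6.18, 5.94 and 6.21 against 6.92, 7.27, 7.73 and 7.81. Atf4, of the integrated stress response, was 1.55-fold lower, a call lost without WT array 1 or 2. Fos, Egr1 and Ier2 differed by -0.44, -0.04 and -0.10 and were not called. Trp53inp1, a target of p53, was 2.02-fold lower and Ero1a, an oxidase of the endoplasmic reticulum, 1.70-fold lower. Of 10 interferon response genes, Ifi35 (1.74-fold) and Bst2 (1.62-fold) were higher.

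A list of genes with levels reported to vary between inbred strains was read beside these results. Of 13 tested, 2 were called (15.4%, against 11.2% of all tested genes). Glo1, the glyoxalase, read 10.82, 10.74 and 10.75 in Cbfb+/+ and 9.89, 10.12, 9.56 and 9.80 in WT (1.90-fold higher). Nnt, a mitochondrial transhydrogenase that is truncated in some C57BL/6 stocks, read 5.94, 6.02 and 5.98 against 6.44, 6.49, 7.07 and 6.98 (1.70-fold lower). The labels give no strain for the Cbfb+/- parents, so the part of strain was not tested. Of the MHC genes 0 of 6 were called by limma, with H2-K1 and H2-D1 at 0.44 and 0.49.

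Xist, the RNA that coats the inactive X chromosome of female cells, read 8.35, 8.32 and 8.29 in Cbfb+/+, 7.58 and 7.40 in the first WT pair, and 9.29 and 9.14 in the second. The levels were tight within each set and did not overlap between sets. The labels give no sex for the pooled embryos, and the part of the sex ratio in other differences was not tested.

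Likeness between the wild types was also counted. For 3471 of the 7392 tested genes (47%) the 95% interval of the difference lay within 1.5-fold either way, and for 187 it lay wholly beyond 1.5-fold. Of the 3471, however, 1638 were marked. For 4555 genes (61.6%) the Cbfb+/+ mean was within 1.5-fold of both WT pairs. For 3091 genes neither likeness nor a call could be stated. The median absolute difference was 0.26 against all 4 WT arrays, 0.29 against the first pair and 0.33 against the second, while the WT pairs differed from each other by 0.34.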

How the data were processed

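Expression in peripheral blood of E12.5 mouse embryos was measured on 14 single-colour Affymetrix arrays of 45101 probe sets, grouped by title into Cbfb+/+ (3 arrays), Cbfb-/- (3), WT (4) and Cbfb+/MYH11 (4). The deposited values are log2 expression from RMA, made by the authors in Affymetrix Expression Console per the submitters' processing notes. The values were used as deposited, so depth in reads has no counterpart here and the number of arrays limits the precision.

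Probe sets were named from the platform annotation: 34945 had 1 symbol, 932 had several, 9160 had none and 64 were controls. One probe set per gene was kept, that with the highest mean over the 14 arrays, giving 18193 genes. A gene was tested where at least 3 of the 14 arrays reached a log2 value of 6, which left 7392. The 4 groups were fitted together with limma 3.58.1 in R 4.3.3 (lmFit and eBayes), and p-values were adjusted by Benjamini-Hochberg over all tested genes. Intervals cover 95%. The fit was tested on simulated data.

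Genes named in the text were the 15 largest rises and the 15 largest falls among called genes without overlap of arrays, the 10 marked genes in each order farthest from both pairs, up to 4 called and 3 marked genes of each of 37 lists, every member where a list had 5 or fewer of a kind, and a fixed set of 39, of which 34 were tested. Other named genes were chosen after their values were seen, or are list members given as examples. The members and lists were chosen with earlier results of these data known. Same-numbered Cbfb+/+ and WT arrays had deviations correlated between -0.071 and 0.019, so the numbers do not pair them. Alternatives were other scalings, filters, probe-set rules, array sets and blocks. Promoters came from the RefSeq table for GRCm38.p6, matched by symbol for 6053 of the tested genes.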

Additional observations from a re-analysis of the deposited data

Results flagged for a closer look

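Among 193 named genes, 2 had a WT array far from the other 3. For Csf2rb2, WT array 1 read 5.17, the nearest other WT array 5.62 and the farthest 5.70, so the gap was 0.863 of the range. For Cdkn1a, WT array 2 read 6.67 and the other 3 all read 6.43, a gap of 0.966 of the range. Chance flags about 1 in 20 groups of unrelated arrays by this measure. Where the 2 WT pairs lie apart, however, a lone WT array can hardly be flagged, so the number found cannot be set against chance. Csf2rb2 also lost its call without WT array 1, as did other named genes, and without Cbfb+/+ array 3.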

How the results depend on the processing

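The number called was 1489 (1052 higher) against WT arrays 1 and 2 alone and 1968 (1454 lower) against WT arrays 3 and 4 alone. It was 17 (14 higher, 3 lower) with putative pools as a random block and 0 with 6 putative pools, where limma gave 413 genes an unadjusted p under 0.05. At least 2-fold, 153 genes were called (65 higher, 88 lower), and with probe sets averaged 428 (259 higher, 169 lower). That last setting put 60.5% of calls on the higher side and quantile normalization 54.3%, against 48.8%. Leaving out 1 array gave 712 to 1058 called, 348 to 496 higher and 337 to 698 lower. The replicate block on array numbers, which do not pair the arrays, gave 863. Marked genes numbered 7744 with no filter and 1736 with the filter at 7, and those at least 1.5-fold from both pairs 131 with probe sets averaged.

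Some named genes that were not called changed sign beside 1 WT pair, as a marked gene does by construction. Against WT arrays 1 and 2 alone the differences were Afp -1.50, Apoa2 -0.61, Cdh11 1.85, Cdkn1c 0.71, Col5a2 1.04, Csf1r -0.83, Ctsc -1.03, Ddit4 0.65, Dlk1 0.63, Dut 1.27 and F13a1 -1.07. They were Fbl 0.73, Gja1 1.49, Gp9 -0.69, Marcksl1 1.28, Mcm6 0.85, Mcm7 1.02, Ms4a6b -1.22, Nop58 0.64, Pxdn 1.29, Sbk1 1.36 and Xist 0.83. Against WT arrays 3 and 4 alone they were Apoa1 1.06, Apoe 0.93, Bub1 -0.95, Cdc6 -0.96, Cenpf -0.67, Dkc1 -0.63, Fkbp9 -1.32, Lum -0.79 and Mrc1 1.41. They were also Nnat -1.93, Pcbp4 -1.44, Rcn2 -1.31, Rhox5 0.78, Stmn1 -0.62, Thbs1 0.90, Top2a -0.76, Ttr 0.84 and Vim -0.96.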

Other observations

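Probe sets without a single gene symbol behaved like the named ones. In a fit of all 12190 non-control probe sets past the filter, 1465 (12%) were called between Cbfb+/+ and WT. Of 718 with no symbol 91 were called (12.7%), 36 higher and 55 lower in Cbfb+/+, and of 407 with several symbols 46 were called (11.3%), 29 higher and 17 lower.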
